A study of Mus musculus with 2 samples.

Results

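The acute phase reactants are plasma proteins whose output by the liver changes with infection or injury. The 10 genes described here were taken by name, not by their values: the serum amyloid A genes Saa1, Saa2, Saa3 and Saa4, the orosomucoid genes Orm1 and Orm2, Lcn2, Hp, and the pentraxin genes Apcs and Crp. Each matched 1 RefSeq accession in the tables, so that 10 of the 26440 genes measured were members. All of them passed the filter of at least 1 FPKM in either library, which 12477 genes passed. FPKM is a level per kilobase of transcript, scaled by the authors to the size of the library.

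The livers were taken at day 11 after birth from mice of the BALB/c strain. There was 1 library of genotype SRSF2-/- (the knockout library, with 22111605 reads on annotated transcripts) and 1 of wild type (WT, with 22407743 reads), and the design text calls the deletion liver specific. The promoter or Cre line that drives the deletion, the liver cells that carry it and the number of animals behind each library are not stated in the labels. A genotype had 1 library and no replicate, so genotype was not tested, and intervals below are exact 95% intervals of the read ratio that cover counting error only.

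In the acute phase response, interleukin-6 acts on hepatocytes through gp130 and STAT3, and interleukin-1 and tumour necrosis factor act through NF-kB. Together with C/EBP factors these pathways raise transcription of positive acute phase genes in mouse liver, while negative acute phase proteins such as albumin fall. Serum amyloid A and serum amyloid P (the product of Apcs) are the major reactants of mice. C-reactive protein (Crp), the leading clinical reactant in humans, responds little in mice.

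Srsf2 itself had 832 reads in the knockout and 1998 reads in the WT library. The libraries also differed in sex chromosome transcripts: Xist had 6 reads in the knockout and 13004 reads in the WT library, and the Y-linked Ddx3y had 859 reads in the knockout and 0 reads in the WT library. Sex and genotype therefore cannot be told apart for any of the 10 genes. Hepatocyte markers were abundant in both libraries, with a summed level of 31525 FPKM in the knockout and 65425 FPKM in the WT library. Most of that sum was the albumin gene Alb, at 25492 FPKM in the knockout and 50399 FPKM in the WT library. Of 12 markers, 8 had a lower and 4 a higher value in the knockout library, and 0 were at 0 reads. Tat was higher, at 386 FPKM in the knockout and 122 FPKM in the WT library. Cps1, Asgr2 and Hnf4a were higher by less than 2-fold. At least 2-fold lower were 4, and 1 was higher (8 and 1 once centred on the all-gene median). Alb and some of the lower markers, Fgb and Cyp2e1 among them, also belong to the acute phase lists used below.

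The knockout library held less of most of these transcripts than the WT library. Of the 10 genes, 8 had a lower value in the knockout library, a direction found in 15.5% of all genes tested, and 2 had a higher one, as did 84.5% of all genes tested. On the scale log2(FPKM + 1), 6 genes were at least 2-fold lower (Saa1, Saa2, Saa4, Orm1, Orm2 and Crp), against 2.95% of all genes tested. Lcn2 was at least 2-fold higher, as were 19.2% of all genes tested. The remaining genes, Saa3, Hp and Apcs, lay within 2-fold. The median log2 difference over the 10 genes was -2.21 and that over all 12477 genes was 0.55. In bulk tissue, fewer hepatocytes and less RNA per hepatocyte cannot be told apart.

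The libraries differed in composition, which bears on every ratio. The 20 most abundant genes took 21.5% of the knockout reads and 37.5% of the WT reads. Relative to the median of all genes, Hp and Apcs were also at least 2-fold lower, which makes 8 of 10 members against 6.66% of all genes. On that scale 0 of 10 members were at least 2-fold higher, against 5.67% of all genes, because Lcn2 then stood at 0.82.

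**Figure D1:**
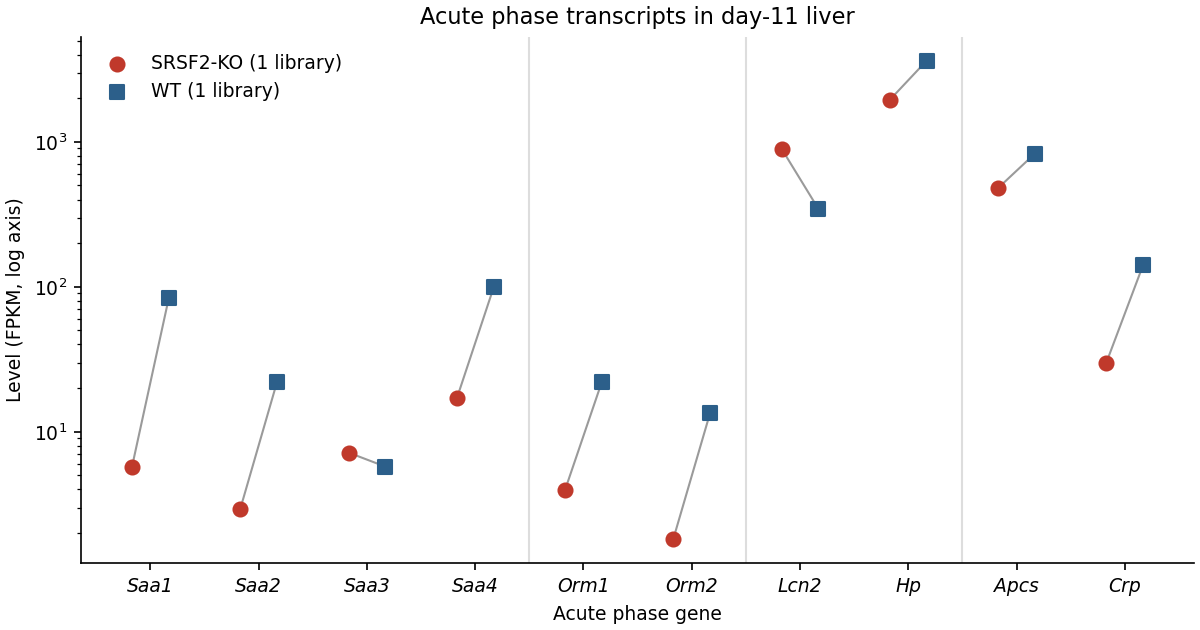
Level of each of the 10 genes in FPKM (log axis) in the SRSF2-KO library (circles) and the WT library (squares), 1 library each, with a line joining the values of a gene. Lcn2 and Saa3 have the knockout circle above the WT square, and the other 8 genes have it below.

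Saa1 and Saa2 encode the serum amyloid A proteins that hepatocytes secrete and that travel on high-density lipoprotein. Their promoters are shown because the pair is nearly the same in sequence. The transcripts share stretches too, so that reads of one gene may have been counted for the other. The windows run from 250 bases before to 50 bases after the annotated start, from RefSeq on build GRCm38.p6, 5′ to 3′ on the strand of the gene. Capitals mark matches to TTGCNNAA, a form of the site that C/EBP factors bind, on either strand. The Saa1 window is chr7:46742931-46743230, minus strand, and the Saa2 window is chr7:46751583-46751882, plus strand.
Saa1: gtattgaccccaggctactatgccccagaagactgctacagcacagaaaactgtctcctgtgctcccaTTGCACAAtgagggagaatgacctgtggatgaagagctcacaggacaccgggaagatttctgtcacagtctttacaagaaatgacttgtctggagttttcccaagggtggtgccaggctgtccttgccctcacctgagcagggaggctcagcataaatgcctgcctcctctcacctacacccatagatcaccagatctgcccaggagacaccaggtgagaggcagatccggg
Saa2: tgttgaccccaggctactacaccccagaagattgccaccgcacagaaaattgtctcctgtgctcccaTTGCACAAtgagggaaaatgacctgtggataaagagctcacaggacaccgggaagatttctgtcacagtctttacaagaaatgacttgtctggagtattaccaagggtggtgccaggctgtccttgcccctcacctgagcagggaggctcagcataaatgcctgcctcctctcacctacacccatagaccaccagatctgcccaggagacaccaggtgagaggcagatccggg

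The windows were identical at 287 of 300 aligned positions (95.7%), and both held TTGCACAA. The match began at position -182 in Saa1 and -183 in Saa2, counted from the annotated transcript start. The GENCODE transcripts of the pair were 93.9% identical, and 14.8% of the 560 stretches of 50 bases in Saa1 were also found in another gene, 74 of them in Saa2.

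Saa1 had 119 reads and 5.75 FPKM in the knockout library, against 1757 reads and 83.8 FPKM in the WT library. The knockout level was 14.6-fold lower (12.1 to 17.7), the largest difference among the 10 genes, and 0.136% of all genes tested had a lower log2 difference. By level, Saa1 ranked 6829 of 12477 genes in the knockout library and 544 in the WT library. Saa2 had 51 reads and 2.94 FPKM in the knockout library, against 389 reads and 22.2 FPKM in the WT library, 7.54-fold lower (5.62 to 10.3). As counted, the difference was thus larger for Saa1 than for Saa2, but the split of reads between them is uncertain. The FPKM ratio of Saa1 to Saa2 was 1.96 in the knockout library and 3.78 in the WT library, an odds ratio of 0.517 in reads (exact conditional interval 0.362 to 0.746). Summed, the pair stood at 8.69 FPKM in the knockout and 106 FPKM in the WT library, so their sum was lower as well. The names of these genes have been exchanged in the past, and each is listed as an older name of the other, so they were identified here by accession.

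Saa4 encodes the constitutive serum amyloid A of plasma, which responds little to inflammation. It had 906 reads and 16.99 FPKM in the knockout library, against 5338 reads and 98.9 FPKM in the WT library, 5.82-fold lower (5.43 to 6.25). The constitutive gene was therefore also lower, by a smaller factor than Saa1. Saa4 was the most abundant of the 4 serum amyloid A genes in the knockout library. In the WT library its level was 1.18 times that of Saa1 with the authors' transcript lengths but 0.884 times with GENCODE lengths, so the order of these genes is uncertain there.

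Saa3 is expressed in mice mainly outside hepatocytes, in macrophages, adipose tissue and epithelia. It had 100 reads and 7.18 FPKM in the knockout library, against 81 reads and 5.75 FPKM in the WT library. The ratio was 1.25 with an interval of 0.923 to 1.70, so that a difference in either direction was not detectable at this depth. Saa3 was the least abundant of the 10 genes in the WT library. In the knockout library its level was 1.25 times that of Saa1, with a counting interval of 0.949 to 1.64 that includes 1, and 0.922 times with GENCODE lengths. Per Saa1, the odds of a Saa3 read were 18.2 times as high in the knockout as in the WT library (12.7 to 26.2). Its log2 difference changed sign with the scaling, from -0.35 with TMM scaling to 0.75 relative to the hepatocyte marker median. Its promoter window (chr7:46715627-46715926, minus strand) is shown to set it beside those of Saa1 and Saa2, with the C/EBP letters and GGNNTTTCC, from the site that NF-kB binds, in capitals.
Saa3: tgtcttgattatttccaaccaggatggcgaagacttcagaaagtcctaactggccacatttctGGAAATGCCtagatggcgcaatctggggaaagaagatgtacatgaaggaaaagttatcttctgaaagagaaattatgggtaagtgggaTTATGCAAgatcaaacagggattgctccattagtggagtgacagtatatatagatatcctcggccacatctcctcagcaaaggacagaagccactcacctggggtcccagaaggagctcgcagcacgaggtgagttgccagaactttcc

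This window was 50.2% identical to that of Saa1 in a global alignment. It held 1 match to the C/EBP letters, TTATGCAA at position -99, which is TTGCNNAA read on the opposite strand. The NF-kB letters were matched on the opposite strand too, by GGAAATGCC at position -187.

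Orm1 and Orm2 encode orosomucoid, or alpha-1-acid glycoprotein, a heavily glycosylated carrier of basic drugs and a modulator of immune cells. Orm1 had 80 reads and 3.97 FPKM in the knockout library, against 450 reads and 22.1 FPKM in the WT library, 5.57-fold lower (4.37 to 7.14). Orm2 had 37 reads and 1.82 FPKM in the knockout library, against 277 reads and 13.5 FPKM in the WT library, 7.40-fold lower (5.24 to 10.7). The intervals of the pair overlap, and the odds ratio of Orm1 to Orm2 was 1.33 (0.863 to 2.08). The transcripts are 91.0% identical, and 20.4% of the Orm1 stretches of 50 bases (148 of 726) were also found in Orm2, so the split between them is uncertain. The pair summed to 5.80 FPKM in the knockout library and 35.6 FPKM in the WT library. A further family gene, Orm3, had 3 reads in the knockout and 10 reads in the WT library. The Orm2 window (chr4:63362199-63362498, plus strand) is shown because its match is TTGCGCAA, the palindromic form of the C/EBP site, at position -120.
Orm2: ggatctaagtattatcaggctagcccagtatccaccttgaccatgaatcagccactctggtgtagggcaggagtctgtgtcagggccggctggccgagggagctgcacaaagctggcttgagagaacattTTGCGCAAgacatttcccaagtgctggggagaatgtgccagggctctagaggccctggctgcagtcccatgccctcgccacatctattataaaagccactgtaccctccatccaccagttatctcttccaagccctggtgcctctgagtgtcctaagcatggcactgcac

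Hp encodes haptoglobin, which binds free haemoglobin in plasma so that macrophages can take the complex up through CD163. It had 68755 reads and 1950.1 FPKM in the knockout library, against 129530 reads and 3630.3 FPKM in the WT library, 1.86-fold lower (1.84 to 1.88). Hp was the most abundant of the 10 genes in both libraries, at rank 19 in the knockout and rank 13 in the WT library among all genes tested. Alb, the albumin gene and a negative acute phase gene, was 1.98-fold lower (1.97 to 1.98). Per 1000 FPKM of Alb, Hp stood at 76.5 FPKM in the knockout and 72.0 FPKM in the WT library. Its shortfall in the knockout library was thus close to that of Alb.

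Apcs encodes serum amyloid P component, the pentraxin that binds amyloid fibrils and chromatin. It had 12384 reads and 480.1 FPKM in the knockout library, against 21677 reads and 830.4 FPKM in the WT library, 1.73-fold lower (1.69 to 1.77). Per 1000 FPKM of Alb it stood at 18.8 FPKM in the knockout and 16.5 FPKM in the WT library. Like Hp, it was lower by a smaller factor than Alb.

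Crp encodes C-reactive protein, which binds phosphocholine on bacteria and damaged cells and activates complement through C1q. It had 1336 reads and 30.01 FPKM in the knockout library, against 6390 reads and 142 FPKM in the WT library, 4.73-fold lower (4.45 to 5.02). The pentraxins therefore parted: the FPKM ratio of Apcs to Crp was 15.997 in the knockout and 5.85 in the WT library, an odds ratio of 2.73 (2.57 to 2.91). Both genes lie on chromosome 1 and their transcripts share little sequence (53.5% identity in a global alignment, with 0 stretches of 50 Apcs bases found in any other gene).

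Lcn2 encodes lipocalin-2, which starves bacteria of iron by binding their siderophores and is made by hepatocytes, neutrophils and injured epithelia. It had 20038 reads and 896 FPKM in the knockout library, against 7799 reads and 345 FPKM in the WT library, 2.60-fold higher (2.53 to 2.67). It ranked 49 of all genes tested in the knockout library and 138 in the WT library, and 92.0% of the genes tested had a lower log2 difference. Per 1000 FPKM of Alb, Lcn2 stood at 35.2 FPKM in the knockout library, against 6.84 FPKM in the WT library. Its value was above that of the WT library under all the scalings tried. It no longer reached 2-fold once differences were centred on the all-gene median (0.82 on the log2 scale) or with TMM scaling (0.65). At 2.60-fold it did not meet a size rule of 4-fold. No stretch of 36 or 50 bases of its transcript was found in another gene. Its promoter window (chr2:32387690-32387989, minus strand) is shown as that of the member at least 2-fold higher, with the C/EBP letters in capitals at position -216.
Lcn2: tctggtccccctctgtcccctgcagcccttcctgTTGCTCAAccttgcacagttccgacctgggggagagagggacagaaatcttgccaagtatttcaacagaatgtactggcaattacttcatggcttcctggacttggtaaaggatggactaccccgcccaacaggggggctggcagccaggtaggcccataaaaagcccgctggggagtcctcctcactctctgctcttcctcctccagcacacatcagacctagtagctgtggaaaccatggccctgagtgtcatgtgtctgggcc

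Beside the higher Lcn2 value, markers of other cells that can express it lay on both sides. Counts on the scale centred on the median of all genes follow each count in brackets. Of all genes tested, 19.2% were at least 2-fold higher (5.67% centred) and 2.95% at least 2-fold lower (6.66% centred). The neutrophil and granulocyte precursor list summed to 130 FPKM in the knockout and 253 FPKM in the WT library, with 4 of 13 tested markers at least 2-fold lower (8 centred), 0 higher (0 centred) and 0 at 0 reads. Prtn3, a protease of granulocyte precursors, stood farthest down, at 1.53 FPKM in the knockout and 24.2 FPKM in the WT library. Of the 13 tested markers, 3 had higher values in the knockout library. Retnlg stood at 8.72 FPKM in the knockout and 4.15 FPKM in the WT library. Csf3r, the receptor of granulocyte colony-stimulating factor, stood at 3.02 FPKM in the knockout and 1.52 FPKM in the WT library. The neutrophil collagenase gene Mmp8 stood at 1.04 FPKM in the knockout and 0.692 FPKM in the WT library. Cholangiocyte markers summed to 183 FPKM in the knockout and 35.9 FPKM in the WT library, with 5 of 7 at least 2-fold higher (3 centred). Much of that difference lay in Tff3, at 80.2 FPKM in the knockout and 1.81 FPKM in the WT library. Cldn4 followed, at 33.4 FPKM in the knockout and 0.125 FPKM in the WT library. Spp1 and Sox9 did not reach 2-fold, at 46.6 and 1.47 FPKM in the knockout and 29.7 and 1.14 FPKM in the WT library. Kupffer cell and macrophage markers summed to 479.7 FPKM in the knockout and 213 FPKM in the WT library, with 4 of 9 at least 2-fold higher (1 centred). Adipocyte markers, beside Lcn2 and Saa3, summed to 136 FPKM in the knockout and 51.9 FPKM in the WT library. That sum rests on Fabp4, at 101 FPKM in the knockout and 51.4 FPKM in the WT library, and Cidec, at 33.4 FPKM in the knockout and 0.484 FPKM in the WT library. The other 5 adipocyte markers were below 1 FPKM in both libraries, with Adipoq, Plin1, Lep and Retn at 0 reads in the WT library and Retn at 0 in the knockout library. The part of these cells in the Lcn2 and Saa3 values was not tested. The other lists gave 5 of 9 stellate cell and fibroblast (1 centred), 1 of 2 adipocyte (1 centred), 7 of 7 exocrine pancreas (7 centred) and 7 of 7 skeletal muscle markers (7 centred) at least 2-fold higher and 0 lower. All tested muscle markers, and all tested pancreas markers except Amy2a5, were below 1 FPKM in the WT library. They passed the filter through the knockout value alone, so the filter set their direction and these counts are no test of it. Exocrine pancreas markers summed to 588 FPKM in the knockout and 4.61 FPKM in the WT library, where Pnlip and Cel were at 0 reads. Of 8 endothelial markers 0 reached 2-fold in either direction (0 centred). Of 6 erythroid markers 0 did so, but on the centred scale 2 were at least 2-fold lower, Hba-a1 at -1.38 and Alas2 at -1.35.

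Promoter windows were found for 8 of the 10 genes, not for Orm1 and Hp. The letters of every motif here were chosen after the windows and the values had been seen. The shares over all windows are therefore no test of the members. The letters TTGCNNAA occurred on either strand in 6 of the 8, those of Saa1, Saa2, Saa3, Saa4, Orm2 and Lcn2. They occurred in 10.8% of 32851 promoter windows of the same length. Genes on both sides carried the match, since Lcn2 was higher and Saa1, Saa2, Saa4 and Orm2 were lower in the knockout library. The STAT letters TTCNNNGAA occurred in 1 of the 8, that of Apcs, and in 8.30% of all windows. The letters GGNNTTTCC, from the NF-kB site, occurred in 1 of the 8, that of Saa3, and in 5.82% of all windows. These letters were shortened from a form with 1 more G at the start, which had been searched first and matched no window of the 8, so the Saa3 match depends on a choice made after that result was seen. The Saa1 and Saa2 windows are near-copies and do not count as separate cases, and no letters of these motifs overlapped each other.

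**Figure D2:**
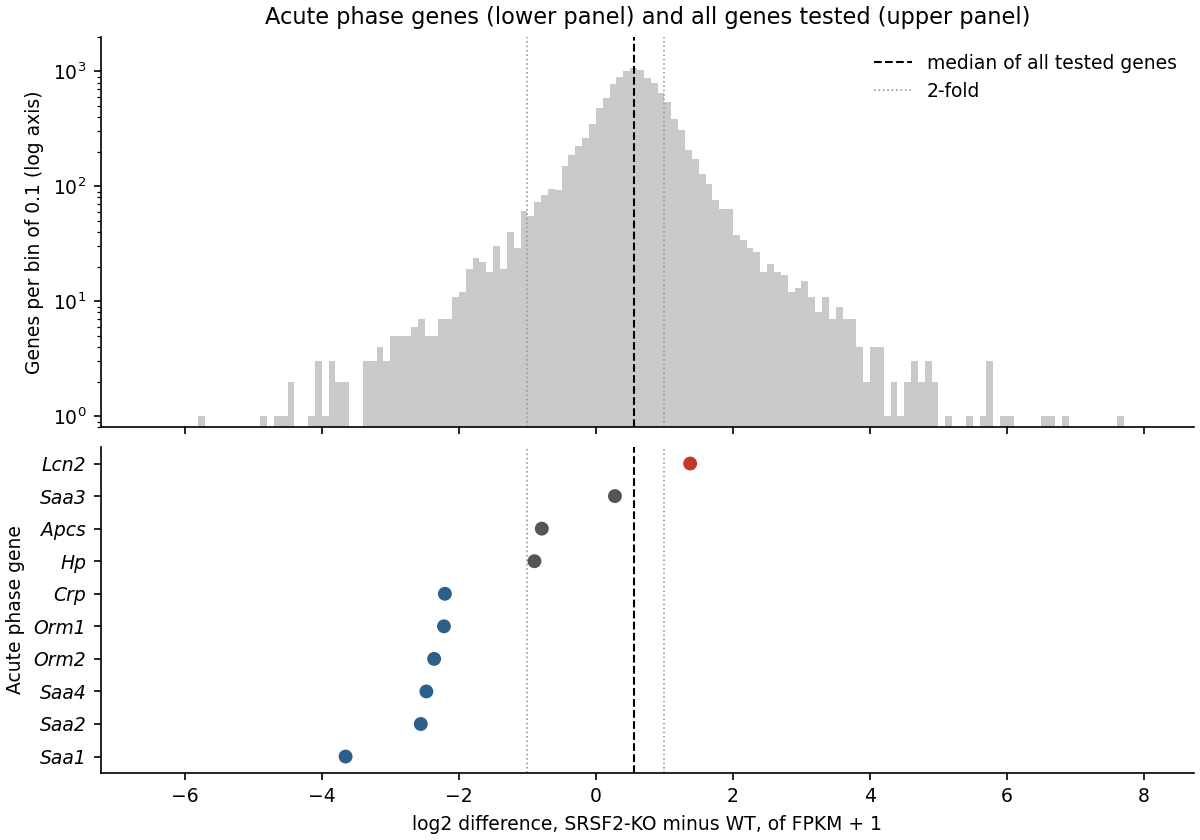
Log2 difference of FPKM + 1, SRSF2-KO minus WT, of all 12477 genes tested (upper panel, genes per bin of 0.1 on a log axis) and of the 10 acute phase genes (lower panel), with the median of all genes at 0.55 (dashed) and 2-fold (dotted). The lower panel shows 6 genes left of the lower 2-fold line, with Saa1 farthest left, and Lcn2 right of the upper one.

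The order of the genes by level differed between the libraries. In the knockout library Hp was followed by Lcn2, Apcs, Crp, Saa4, Saa3, Saa1, Orm1, Saa2 and Orm2. In the WT library Hp was followed by Apcs, Lcn2, Crp, Saa4, Saa1, Saa2, Orm1, Orm2 and Saa3. Some neighbours are apart by less than counting error: Saa3 and Saa1 in the knockout library, Orm1 and Saa2 in the knockout library (a level ratio of 1.35, 0.940 to 1.96), and Saa2 and Orm1 in the WT library (1.001, 0.872 to 1.15). The places of Saa1, Saa2 and Orm1 relative to these neighbours are therefore not settled. The other differences in order are that Lcn2 stood above Apcs in the knockout and below it in the WT library, and that Saa3 stood last in the WT library alone. Without replicates no spread between animals can be set beside these orders.

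The make-up of the acute phase transcripts shifted with these differences. The 10 genes summed to 3395 FPKM in the knockout library and 5193 FPKM in the WT library, with 0.469% of all reads in the knockout and 0.775% in the WT library. Hp made up 57.4% of the sum in the knockout and 69.9% in the WT library. Lcn2 made up 26.4% in the knockout and 6.64% in the WT library. Without Hp and Lcn2 the other 8 genes summed to 549 FPKM in the knockout and 1219 FPKM in the WT library. The 6 genes that were at least 2-fold lower were also lower per Alb, by 2.39-fold for Crp to 7.38-fold for Saa1, whereas Saa3, Lcn2, Hp and Apcs stood higher per Alb in the knockout library.

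**Figure D3:**
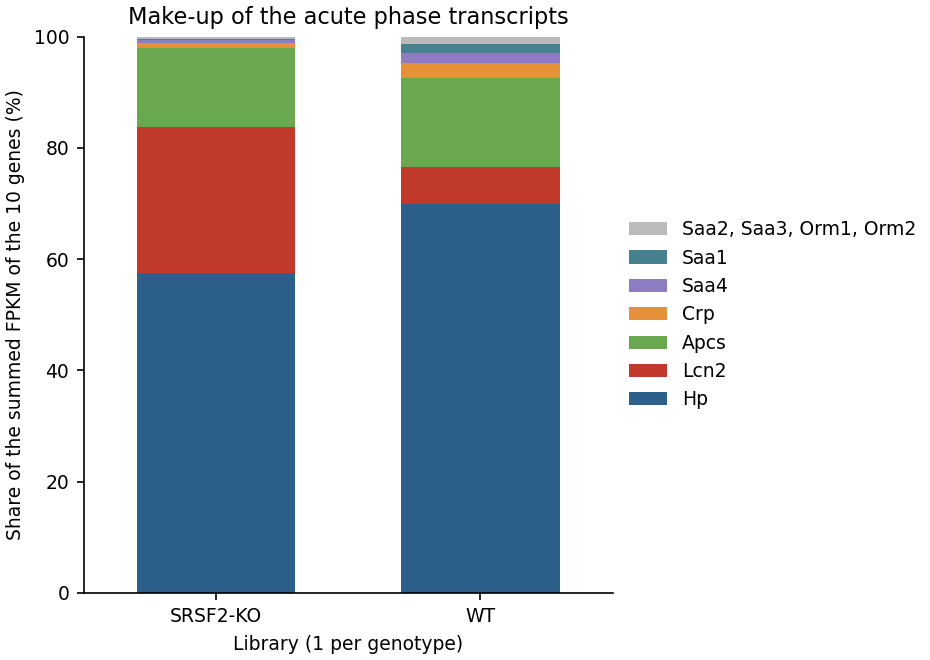
Share of the summed FPKM of the 10 genes (%) taken by each gene in the SRSF2-KO library (left bar) and the WT library (right bar), 1 library each. Lcn2 takes 26.4% of the knockout bar and 6.64% of the WT bar, and the bands of Crp, Saa4 and Saa1 are thinner in the knockout bar.

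Over the 2 libraries, the genes nearest to a member in log2(FPKM + 1) are those with both levels alike. Nearest to Lcn2 were Ppia, a cyclophilin, at 837 FPKM in the knockout and 361 FPKM in the WT library, Rps16, a ribosomal protein, and Cyp3a11, a drug-metabolising cytochrome, at distances of 0.12, 0.40 and 0.41. Nearest to Saa1 were Dio1, the type 1 deiodinase that activates thyroid hormone, at 7.18 FPKM in the knockout and 69.2 FPKM in the WT library, Otc of the urea cycle and the cytochrome Cyp2c40, at distances of 0.39, 0.62 and 0.62. With a pair of libraries such likeness reflects level and ratio alone.

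Other positive acute phase genes lay on both sides. Of 25 measured, 23 were tested, and 10 were at least 2-fold lower and 4 higher (14 and 3 on the centred scale). Their median log2 difference was -0.93 (-1.48 relative to all genes). Of all genes tested, 2.95% were at least 2-fold lower and 19.2% higher (6.66% and 5.67% centred). Itih4, which encodes a heavy chain of the inter-alpha-inhibitor family, was at 210 FPKM in the knockout and 1256 FPKM in the WT library. Hpx, which encodes the haem scavenger hemopexin and is the most abundant of the list, stood at 3675 FPKM in the knockout and 4338 FPKM in the WT library. Higher in the knockout library were Hamp, the hepcidin gene, at 194 FPKM against 0.668 FPKM in the WT library, and Cd14, the lipopolysaccharide co-receptor, at 32.2 FPKM against 2.90 FPKM in the WT library.

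The median of 12 negative acute phase genes tested was -1.07 (-1.62 relative to all genes). On the centred scale 9 were at least 2-fold lower and 0 higher. Without centring 6 were at least 2-fold lower and 0 higher. Of the other 6, 2 had higher values in the knockout library: Rbp4, the plasma retinol carrier, at 2201 FPKM in the knockout and 1436 FPKM in the WT library, and Apoa2, an apolipoprotein of high-density lipoprotein, at 7630 FPKM in the knockout and 6767 FPKM in the WT library. Serpina6, the corticosteroid-binding globulin gene, stood at 13.3 FPKM in the knockout and 208 FPKM in the WT library, and Igfals, which encodes the acid-labile subunit of circulating IGF complexes, at 2.04 FPKM in the knockout and 43.0 FPKM in the WT library. Cyp2e1, the ethanol-oxidising cytochrome, stood at 568 FPKM in the knockout and 1938 FPKM in the WT library. Positive and negative acute phase transcripts thus both included genes at least 2-fold lower.

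**Figure D4:**
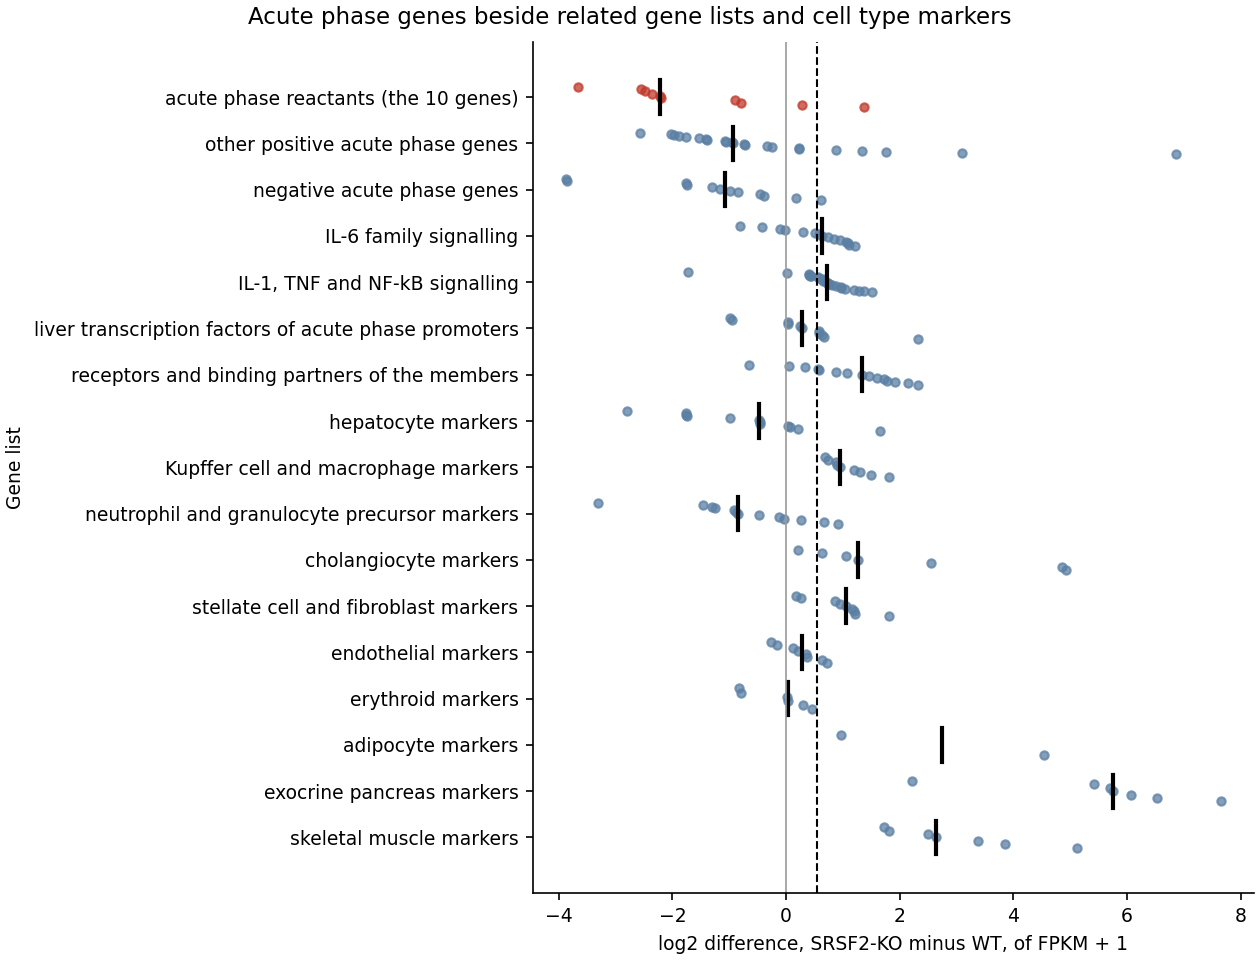
Log2 difference of FPKM + 1, SRSF2-KO minus WT, of every tested gene (points) of the 10 acute phase genes (top row) and of related gene lists and cell type markers, with list medians as black bars, 0 as a grey line and the median of all genes as a dashed line. The acute phase median of -2.21 lies left of all the other list medians drawn, while the cytokine signalling lists centre near the dashed line.

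By list median, the tested genes of cytokine signalling lay near the median of all genes. Of 15 tested IL-6 family genes, 4 reached 2-fold upwards and 0 downwards (0 and 1 on the centred scale), with a median of 0.63. Of all genes tested, 19.2% reached it upwards and 2.95% downwards (5.67% and 6.66% centred). Il6st, which encodes the shared receptor gp130, stood at 54.7 FPKM in the knockout and 24.7 FPKM in the WT library. Osmr, the oncostatin M receptor gene, stood at 3.79 FPKM in the knockout and 1.08 FPKM in the WT library, and the kinase gene Jak2 at 7.52 FPKM in the knockout and 2.998 FPKM in the WT library. Stat3, the transcription factor of this pathway and its most abundant gene, stood at 39.4 FPKM in the knockout and 42.4 FPKM in the WT library. Il6 itself had 3 reads in the knockout library and 0 reads in the WT library, too few to compare. Osm and Il11 had few reads as well. Lif, also below the filter, had 65 reads in the knockout and 2 reads in the WT library, 32.9-fold higher (8.75 to 277).

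Of 24 tested genes of IL-1, TNF and NF-kB signalling, 5 reached 2-fold upwards and 1 downwards (0 and 1 on the centred scale). Against 19.2% of all genes tested upwards and 2.95% downwards, the upward count was near the all-gene share. The list median was 0.72. Il1rap, the accessory chain that the interleukin-1 receptor needs to signal, was the lower one, at 3.26 FPKM in the knockout and 13.1 FPKM in the WT library, 4.03-fold lower (3.61 to 4.51). Tnfaip3, an inhibitor of NF-kB signalling, stood at 4.17 FPKM in the knockout and 0.801 FPKM in the WT library, and the NF-kB subunit gene Relb at 4.93 FPKM in the knockout and 1.28 FPKM in the WT library. Tnfrsf1a, the TNF receptor gene and the most abundant of the list, stood at 59.3 FPKM in the knockout and 39.3 FPKM in the WT library.

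Among 11 transcription factors that act on liver acute phase promoters, 1 reached 2-fold upwards and 0 downwards (1 and 2 on the centred scale). The all-gene shares were 19.2% upwards and 2.95% downwards (5.67% and 6.66% centred). Cebpd, a C/EBP factor induced in inflammation, stood at 26.8 FPKM in the knockout and 4.59 FPKM in the WT library, 5.85-fold higher (5.14 to 6.67). Cebpa, the C/EBP factor of mature hepatocytes, stood at 42.7 FPKM in the knockout and 83.9 FPKM in the WT library, and Foxa2, a forkhead factor, at 5.04 FPKM in the knockout and 11.0 FPKM in the WT library. Hnf4a, a nuclear receptor of hepatocytes, stood at 93.2 FPKM in the knockout and 90.6 FPKM in the WT library. The list median of 0.27 changed sign to -0.28 after centring.

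Genes listed as receptors or partners of these plasma proteins mostly had higher values, 14 of 15 tested, as did 84.5% of all genes tested. The list also holds the haem oxygenase gene Hmox1, which encodes no receptor. Its log2 difference was 1.73 (1.18 centred), so it is in the upward counts on both scales. Of the 15, 9 reached 2-fold upwards, against 19.2% of all genes tested, and 0 downwards, with a median of 1.33. On the centred scale 6 reached it upwards and 1 downwards, against 5.67% and 6.66% of all genes tested. The Fc receptor genes Fcgr4 and Fcgr1, which can bind pentraxins, stood at 29.6 FPKM and 14.7 FPKM in the knockout library, against 5.13 FPKM and 2.52 FPKM in the WT library. C1qb, a chain of the complement component C1q, stood at 229 FPKM in the knockout and 74.5 FPKM in the WT library. The haptoglobin receptor gene Cd163 differed little, at 2.14 FPKM in the knockout and 2.02 FPKM in the WT library. Lrp1 was the tested gene with a lower value, at 60.4 FPKM in the knockout and 95.7 FPKM in the WT library.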

How the data were processed

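Liver RNA of 1 SRSF2-/- and 1 WT library was compared. Per the file headers, the authors deposited a whole-number read count per RefSeq accession and, beside it, an FPKM of their own normalization. Bowtie 0.12.2 and the build mm9 are named, per the submitters' processing notes, while the counting program and its use of strand and of multi-mapping reads are not stated there. Depth was 22111605 reads in the knockout and 22407743 reads in the WT library.

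Of 26449 accessions, 23419 were named through a RefSeq table of GRCm38.p6 and GENCODE M21, and lines of a gene were summed. The authors' transcript length for Saa1, read from FPKM per read, was 1.19 times that for Saa2, against 1.005 times in GENCODE, so Saa1 may be understated beside Saa2.

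Differences are log2 of knockout over WT after adding 1 FPKM, which understates low genes, for genes of at least 1 FPKM in either library. Folds are plain FPKM ratios. Their exact 95% intervals (Clopper-Pearson, from reads) were scaled by 1.012, the ratio of FPKM per read between the tables, and reads of amplified libraries are not independent molecules. With 1 library per genotype no p-value was computed.

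Besides the members the rule names Srsf2, the 3 genes nearest to the members with the highest and lowest differences, and of each list the 3 largest absolute differences and the most abundant gene, of which the text gives a selection. Il6, Orm3, Xist, Ddx3y, Rbp4, Apoa2, Retnlg, Csf3r, Mmp8, Cd163, Lrp1, Spp1, Sox9 and the markers at 0 reads were chosen after their values were seen. So were Lif, Osm, Il11, Tnf, Il1a, Il1b, Tat, Cps1, Asgr2, Hmox1 and Amy2a5. The members and lists were chosen with earlier results of these data known. The promoter motif letters were chosen after the promoter windows and the values had been seen. The size rule and intervals were tested on simulated libraries. Python 3.11.15, scipy 1.17.1, Biopython 1.88 and edgeR 4.0.16 (TMM factors) were used.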

Additional observations from a re-analysis of the deposited data

How the results depend on the processing

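Each value rests on 1 library per genotype, so leaving out a library was not possible. No paired analysis was possible because each genotype has 1 library. The 6 genes at least 2-fold lower (Saa1, Saa2, Saa4, Orm1, Orm2 and Crp) met the size rule under all 12 alternatives run. With Hp and Apcs, 8 met it when centred on the all-gene median, with TMM scaling, without the 20 most abundant genes or at 1.5-fold. The changes of filter and the choice of the most abundant accession left every member value unchanged, so those alternatives were no check of these genes. The count of members at least 2-fold higher was 0 on that centred scale and 0 with TMM scaling, and 0 members were at least 4-fold higher. Summing near-identical genes gave log2 differences of -3.47 for Saa1 with Saa2, -2.43 for Orm1 with Orm2 and -2.43 with Orm3 added. With GENCODE transcript lengths, an alternative chosen after seeing the data, 2 pairs of neighbours changed places: Saa3 over Saa1 in the knockout library, at 0.922, and Saa4 over Saa1 in the WT library, at 0.884. The counts over all genes moved more. At least 2-fold higher were 3797 genes with a pseudocount of 0.1, 786 with a pseudocount of 5, 3628 on the TPM scale, 708 after centring on all genes, 766 with TMM scaling, 1580 without the 20 most abundant genes, 6468 after centring on hepatocyte markers, 5914 under a 1.5-fold rule and 344 under a 4-fold rule, against 2396 as reported. The 368 genes at least 2-fold lower became 232 at a pseudocount of 5, 831 after centring on all genes and 947 with TMM scaling. Leaving out the 20 most abundant genes gave 645, and centring on hepatocyte markers gave 195. Under the other size rules 687 genes were at least 1.5-fold lower and 94 at least 4-fold lower. Depth limits Saa3, Saa2, Orm1 and Orm2 most, with 37 to 100 reads each in the knockout library.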
